A study of Mus musculus with 20 samples.

Results

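A set of 10 genes of natural killer (NK) and cytotoxic lymphocytes were followed in mouse blood: Gzma, Gzmb, Prf1, Nkg7, Klrd1, Klrb1c, Ncr1, Klrk1, Eomes and Tbx21. They were chosen by name, as every non-control probe that the array files give one of these gene names, which found 13 of 39429 probes and all 10 genes. Nkg7, Klrb1c and Eomes had 2 probes each and the others 1. The blood came from 20 male mice of 8 to 10 weeks, 5 in each of 4 groups, each hybridised to 1 single-colour Agilent array: C57BL/6 wild-type mice (WT) given 0 Gy, WT mice given 7 Gy, Il10-/- mice (B6.129P2-Il10tm1Cgn/J) given 0 Gy, and Il10-/- mice given 7 Gy. The Il10-/- mice carry a disrupted gene for interleukin 10, a cytokine that restrains inflammation, in all cells, and both genotypes were bred from heterozygous parents. The dose was whole-body X-rays, the 0 Gy mice were sham-irradiated, and whole blood was drawn by cardiac puncture 24 h later, with globin RNA reduced. The design asks how these genes differ between the genotypes without radiation, how they respond to 7 Gy in each genotype, and whether the responses differ.

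NK cells and cytotoxic T cells kill infected or transformed cells by releasing granules onto them. Perforin (Prf1) opens the target's membrane, granzymes A and B (Gzma, Gzmb) are the granule proteases that enter and start cell death, and Nkg7 is a granule membrane protein needed for efficient release. Surface receptors set the threshold for attack. Klrd1 (CD94) pairs with NKG2 proteins and recognises a nonclassical MHC class I molecule, Klrk1 (NKG2D) recognises stress-induced ligands, Ncr1 (NKp46) is an activating receptor that marks NK cells, and Klrb1c carries the NK1.1 epitope of C57BL/6 mice. The T-box factors Tbx21 (T-bet) and Eomes direct the development of these cells and the transcription of their effector genes. All but the most NK-restricted of these genes are also used by activated CD8 T cells.

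The sequences just upstream of 5 of the genes are shown because the genes encode parts of the same granule and receptor program. All 5 hold the marked motif, and Eomes and Tbx21, which do not, are not shown. They are RefSeq promoters of the mouse build GRCm38.p6, 5′ to 3′ on the strand of the gene, limited to bases before the gene's start and outside its annotated span. Capitals mark TGTGGT, the core that Runx factors read, or its reverse complement ACCACA.
Gzma, chr13:113100982-113101231, minus strand: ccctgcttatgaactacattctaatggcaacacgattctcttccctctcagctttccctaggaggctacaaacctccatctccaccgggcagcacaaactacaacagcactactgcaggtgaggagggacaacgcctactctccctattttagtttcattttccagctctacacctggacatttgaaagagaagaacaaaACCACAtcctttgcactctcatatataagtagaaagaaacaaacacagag
Gzmb, chr14:56262335-56262584, minus strand: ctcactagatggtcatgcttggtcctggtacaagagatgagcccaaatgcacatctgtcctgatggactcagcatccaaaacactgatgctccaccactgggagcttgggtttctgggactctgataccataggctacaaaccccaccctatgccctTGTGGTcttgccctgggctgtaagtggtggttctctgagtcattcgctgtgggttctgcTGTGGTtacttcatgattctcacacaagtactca
Prf1, chr10:61297586-61297750, plus strand: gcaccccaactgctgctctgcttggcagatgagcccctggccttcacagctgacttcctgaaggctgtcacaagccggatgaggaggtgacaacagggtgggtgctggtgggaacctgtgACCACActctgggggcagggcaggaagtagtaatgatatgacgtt
Nkg7, chr7:43436888-43437137, plus strand: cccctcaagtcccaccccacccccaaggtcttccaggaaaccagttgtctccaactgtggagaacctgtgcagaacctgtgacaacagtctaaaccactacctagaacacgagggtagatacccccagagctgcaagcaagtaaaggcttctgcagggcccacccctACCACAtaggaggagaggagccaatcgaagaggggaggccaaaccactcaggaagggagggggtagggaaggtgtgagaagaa
Klrb1c, chr6:128788642-128788891, minus strand: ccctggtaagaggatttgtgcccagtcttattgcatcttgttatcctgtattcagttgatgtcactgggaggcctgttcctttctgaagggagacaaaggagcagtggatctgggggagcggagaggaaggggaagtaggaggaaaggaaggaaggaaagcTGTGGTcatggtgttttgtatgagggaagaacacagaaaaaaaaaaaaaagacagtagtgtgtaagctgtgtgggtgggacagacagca
Of the 10 genes 9 had an entry, and Klrd1 had none. TGTGGT was found on either strand in 7 of these 9, with 2 matches in Gzmb, 93 and 34 bases before the start. It lay in 14% of 32851 promoter windows of 250 bases. The T-box half-site GGTGTG was found in 1 of the 9, Nkg7, 13 bases before the start, and in 16.3% of all windows. The Ets core AGGAAG was found in 4 of the 9, Prf1, Nkg7, Klrb1c and Tbx21, and in 29.5% of all windows. Eomes held none of the 3. The windows of the genes were 250 bases or, as for Prf1 with 165, shorter. Both strands were searched for each motif, and GGTGTG and TGTGGT can share letters where they adjoin. Such a match describes the letters of the window and shows no binding.

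Values are log2 signals relative to the median of each array, so that 1 unit is a 2-fold difference. Of the 13 probes, 12 passed the filters on background and on small changes and were tested among 18587 features. Probe 2 of Eomes was well above background on 0 of 20 arrays and was not tested. The array files position the probes in mouse build mm9, for example at chr14:56877916-56877975 for Gzmb and chr6:129548612-129548671 for Klrd1. The files place the Klrk1 probe at chr16:78233089-78233148, whereas RefSeq places that gene on chromosome 6, and 2.76% of 27073 comparable probes disagree in this way, so the Klrk1 values are uncertain. A feature was called when limma gave p below 0.001 and an adjusted p (Benjamini-Hochberg over all features) below 0.10.

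The weakest array, WT 0 Gy replicate 5, had 29.9% of its spots well above background, and the other 19 arrays had 34.6% to 57.8%. It held the lowest value of its group for Gzma, Gzmb, Prf1, Klrd1, Tbx21 and both probes of Nkg7 and Klrb1c. The main values at baseline and in the WT response that move by over 1.5 times without it are therefore given beside the result. Replicates 1 and 2 of each group were closer than other replicates, with a robust SD of their differences of 0.230 to 0.336 against 0.407 to 1.39 in the other 36 pairs. Whether these pairs share animals or RNA is not given in the labels and was not tested. If they do, n is below 5 in each group and the errors and p-values of all comparisons here may be too small. The Il10 probe (chr1:132920943-132921002) read 2.75 on average in Il10-/- mice at 0 Gy and −1.54 in WT mice, where it was well above background on 0 of 10 arrays. This is at least 7.24-fold higher in the mice labelled Il10-/-, the opposite of a lost transcript. The position of the disruption relative to the probe was not tested, so the probe does not check the labels, and directions between genotypes are those of the labels.

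Without radiation, 0 of the 10 genes were called between the mice labelled Il10-/- and those labelled WT, where 0.845% of all features were called, every one of the 157 higher in Il10-/- mice. This count moved with the scaling, to 43 when arrays were centred on their 75th percentile (41 higher), 81 with each array scaled to 1 reference array (75 higher), 25 with quantile normalization (24 higher) and 0 with normexp background correction. The count rose to 201 with all 20 arrays in 1 fit (189 higher) and to 384 with slide as a replicate block (368 higher). At an unadjusted p below 0.05, 6 of the 12 tested probes passed, against 16.1% of all features. The median difference of the 12 probes was 0.81, and that of all features was 0.36. The zero of this scale moves with the normalization. With the 75th percentile subtracted the 2 medians were 0.48 and −0.07, and with the reference-array scaling 0.54 and 0.01. Without the weak array they were 0.64 and 0.15. In bulk blood RNA, more cells of a type and more RNA per cell cannot be told apart, and this holds for all results here.

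Among the granule genes, Gzmb had the largest baseline difference of the 12 probes. WT 0 Gy arrays read 3.79, 3.99, 4.25, 3.11 and 2.25, and Il10-/- 0 Gy arrays 5.27, 5.47, 4.64, 4.94 and 4.27. The groups did not overlap, though the highest WT and the lowest Il10-/- array nearly touched. The difference was 1.44 (SE 0.43, n = 5 and 5, adjusted p = 0.177 by limma), and 1.13 without the weak array. For Gzma the difference was 1.17 (SE 0.44), with WT arrays from 6.08 to 8.05 and Il10-/- arrays from 7.68 to 9.06, which overlap. The Nkg7 probes differed by 1.23 (SE 0.51) and 0.83 (SE 0.39), and the Il10-/- arrays of probe 2 lay in a narrow band of 7.94 to 8.23 above the WT range of 6.14 to 7.77. These differences became 0.84 for Gzma and 0.70 and 0.55 for Nkg7 without the weak array. Prf1 differed by 0.16 (SE 0.41) and turned to −0.19 without the weak array, on which it read 3.25 against 4.69 to 5.45 in the other WT mice.

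Of the receptors, Klrd1 differed most at baseline. Its WT 0 Gy arrays read 3.78, 3.83, 4.05, 3.10 and 2.29, and its Il10-/- 0 Gy arrays 4.59, 4.66, 4.54, 4.83 and 3.58. Of the Il10-/- arrays, 4 lay above all WT arrays and replicate 5 lay inside the WT range, with a difference of 1.03 (SE 0.42). The other receptor probes gave 0.79 and 0.71 for Klrb1c, 0.66 for Klrk1 and 0.42 for Ncr1, all with overlapping groups. Klrk1 was 0.99 without the weak array.

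The 2 T-box factors stood on opposite sides. Tbx21 read 4.66, 4.6, 4.80, 3.79 and 2.73 in WT mice and 5.58, 5.49, 4.84, 5.30 and 5.03 in Il10-/- mice, a difference of 1.13 (SE 0.43, adjusted p = 0.244 by limma). Eomes, by probe 1, read 2.87, 2.88, 3.04, 3.80 and 3.70 in WT mice and 2.48, 2.47, 2.86, 2.57 and 2.54 in Il10-/- mice, a difference of −0.67 (SE 0.36, adjusted p = 0.339). The Tbx21 groups did not overlap and neither did those of Eomes, but the margins were 0.04 or less. With normexp background correction the Eomes difference turned to 0.11, where the median of all features was 0.53. In all, 3 probes (Gzmb, Nkg7 probe 2 and Tbx21) were higher without overlap, where 3.98% of all features were, and 1 (Eomes) was lower, where 0.554% were.

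**Figure D1:**
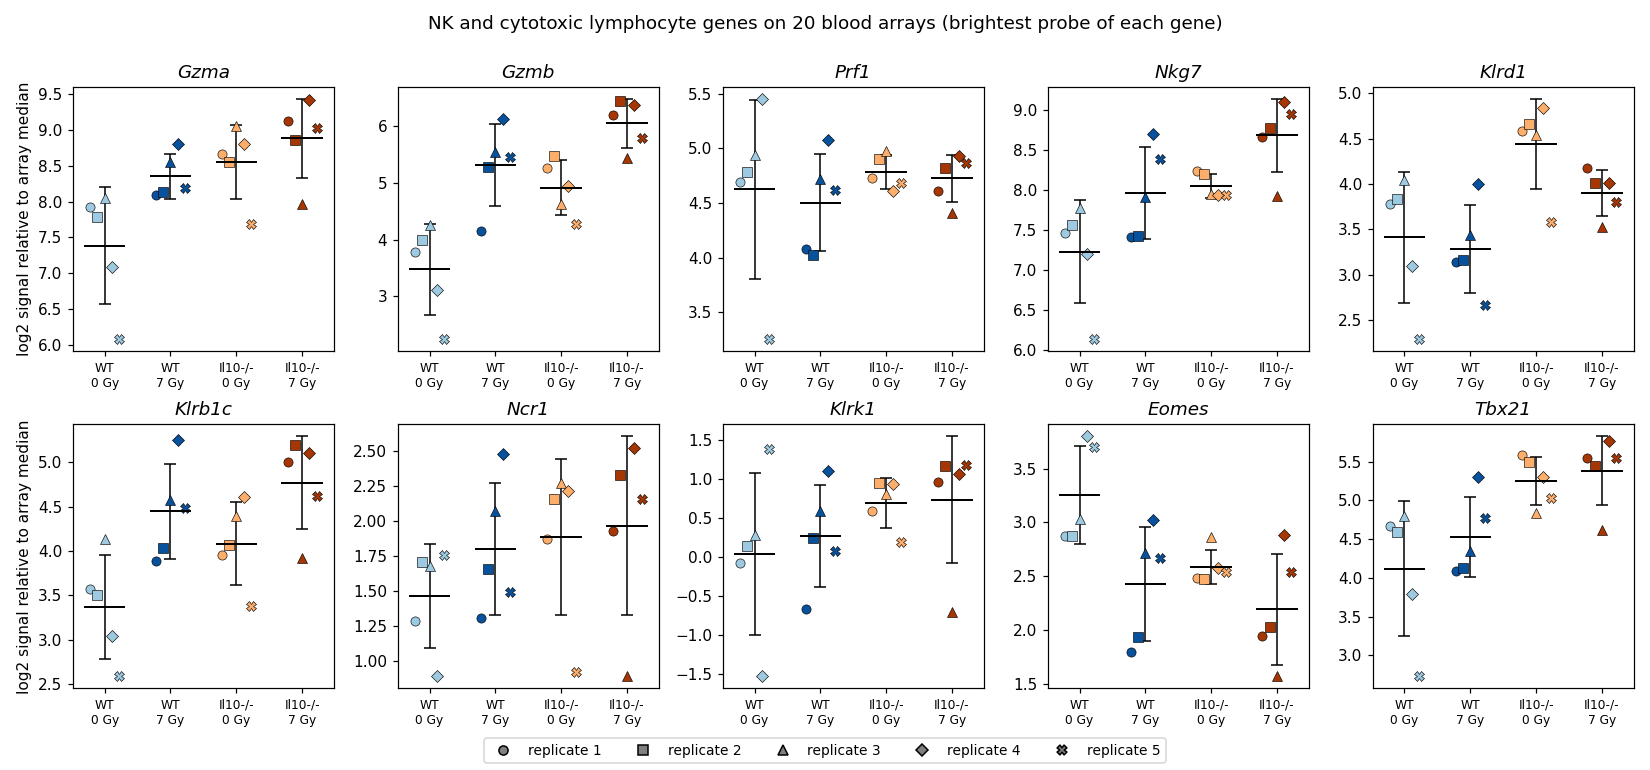
Log2 signal relative to the array median (vertical axis) of the 10 genes, brightest probe of each, on the 20 arrays in 4 groups. Points are arrays, with 1 symbol per replicate number, the bar is the group mean and the whiskers are 1 SD (n = 5). Gzmb lay between 2.25 and 4.25 in WT 0 Gy mice and between 5.44 and 6.46 in Il10-/- 7 Gy mice, and Eomes was highest in WT 0 Gy mice.

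In WT mice, 0 of the 10 genes were called 24 h after 7 Gy, where 6.8% of all features were called, 4.48% higher and 2.32% lower (832 of 1263 higher). The split moved to 795 of 1556 with the 75th percentile subtracted, 705 of 1398 with quantile normalization and 257 of 261 with normexp. At an unadjusted p below 0.05, 4 of 12 probes passed, against 29.1% of all features. The median difference of the 12 probes was 0.57 and that of all features −0.02. Without the weak array these were 0.50 and −0.19.

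Gzmb again differed most. The irradiated WT arrays read 4.16, 5.28, 5.54, 6.14 and 5.46, so 4 of them lay above every unirradiated WT array and replicate 1 lay just below the highest of these. The difference was 1.84 (SE 0.47, 95% interval 0.84 to 2.84, adjusted p = 0.0172 by limma), a 3.57-fold higher signal, seen on 5 of 5 slides. Its unadjusted p of 0.00127 missed the limit of 0.001. Gzmb was the 1 gene of the 10 with an adjusted p below 0.05, which 14.6% of all features had (10.1% higher). With each array scaled to 1 reference array, with the authors' table of processed values, or with all 20 arrays in 1 fit, Gzmb was called, at 1.75, 1.75 and 1.84. The first 2 are nearly the same scaling, with array constants within 0.0094 of each other, and count as 1 alternative. It was also called without WT 0 Gy replicate 3, at 2.03, and without WT 7 Gy replicate 1, at 2.13. Without the weak array the difference was 1.53 and Gzmb was not called. With replicates 1 and 2 averaged it was 2.09 (adjusted p = 0.0279 by limma).

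Gzma read 8.09, 8.14, 8.56, 8.81 and 8.19 after irradiation, above the highest unirradiated WT value of 8.05 on every array, with a difference of 0.97 (SE 0.43, adjusted p = 0.143 by limma). Nkg7 differed by 1.06 (SE 0.54) and 0.74 (SE 0.42) on its 2 probes, and was higher on 3 of 5 slides by either. Without the weak array Gzma differed by 0.65 and Nkg7 by 0.53 and 0.47. Prf1 differed by −0.12 (SE 0.44) and was higher on 1 of 5 slides. Its sign turned with normexp background correction, at 0.43, where the median of all features was 0.65.

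Both Klrb1c probes were higher on 5 of 5 slides, with differences of 1.18 (SE 0.40, adjusted p = 0.0587 by limma) and 1.08 (SE 0.41, adjusted p = 0.0893 by limma). On probe 1 the groups did not overlap, but it was well above background on only 3 of 5 WT 0 Gy arrays. On the brighter probe 2 they overlapped. Klrd1 differed by −0.13 (SE 0.43) and read 3.14, 3.16, 3.43, 4.00 and 2.67 after irradiation. Ncr1 differed by 0.34 (SE 0.38) and Klrk1 by 0.23 (SE 0.51), both well within their spread. Eomes was lower on 5 of 5 slides, at 1.80, 1.93, 2.72, 3.02 and 2.67 after irradiation. Its difference was −0.83 (SE 0.39, adjusted p = 0.176 by limma), with overlapping groups. With normexp this difference turned to 0.21, where the median of all features was 0.65. Tbx21 differed by 0.41 (SE 0.46). Tbx21 was at 0.06, Klrk1 at 0.57, Klrd1 at −0.41 and Prf1 at −0.46 without the weak array. Over the 12 probes, 2 (Gzma and Klrb1c probe 1) were higher without overlap, where 11.8% of all features were, and 0 were lower without overlap, where 4.26% were.

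In Il10-/- mice, 0 of the 10 genes were called after 7 Gy, where 9.16% of all features were called, 3.29% higher and 5.87% lower (611 of 1702 higher, and 940 of 1862 with the reference-array scaling). At an unadjusted p below 0.05, 5 of 12 probes passed, against 35.5% of all features. The median of the 12 probes was 0.23 and that of all features −0.10. These medians were 0.47 and 0.14 with the reference-array scaling, 0.53 and −0.17 with quantile normalization, and 0.013 and −0.32 with normexp. The median of the probes was 0.48 without Il10-/- 7 Gy replicate 3, 0.12 without Il10-/- 7 Gy replicate 4 and 0.095 without Il10-/- 0 Gy replicate 5. No probe separated the groups, where 6.13% of all features were higher without overlap and 10.9% lower.

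Gzmb read 6.20, 6.46, 5.44, 6.38 and 5.79 in irradiated Il10-/- mice. Of these, 4 lay above the highest unirradiated Il10-/- array, 5.47, and replicate 3 just below it. The difference was 1.13 (SE 0.29, 95% interval 0.50 to 1.77, adjusted p = 0.0181 by limma), a 2.19-fold higher signal, again on 5 of 5 slides and again the 1 gene of the 10 with an adjusted p below 0.05, which 21.8% of all features had (7.79% higher). Its unadjusted p was 0.00214. Gzmb was called with the reference-array scaling or the nearly identical authors' table at 1.28, with quantile normalization at 1.20, and with slide as a block at 1.13. It was also called without Il10-/- 7 Gy replicate 3, at 1.29. Its adjusted p by limma rose to 0.0653 with all 20 arrays in 1 fit and to 0.0542 with replicates 1 and 2 averaged. With normexp it was 0.62, and no feature of the array was called in this comparison.

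Nkg7 differed by 0.70 (SE 0.26, adjusted p = 0.0674 by limma) and 0.63 (SE 0.25, adjusted p = 0.0909), higher on 5 and 4 of 5 slides. Klrb1c differed by 0.77 (SE 0.32) and 0.69 (SE 0.31), higher on 4 of 5 slides by each probe. Gzma differed by 0.33 (SE 0.33), Prf1 by −0.05 (SE 0.20), Ncr1 by 0.08 (SE 0.35), Klrk1 by 0.04 (SE 0.36) and Tbx21 by 0.14 (SE 0.26), all smaller than or close to their errors. Klrd1 was lower on 4 of 5 slides, at 4.17, 4.01, 3.52, 4.02 and 3.80 after irradiation, with a difference of −0.54 (SE 0.27, adjusted p = 0.173). Eomes differed by −0.39 (SE 0.26), and was higher on 2 of 5 slides.

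**Figure D2:**
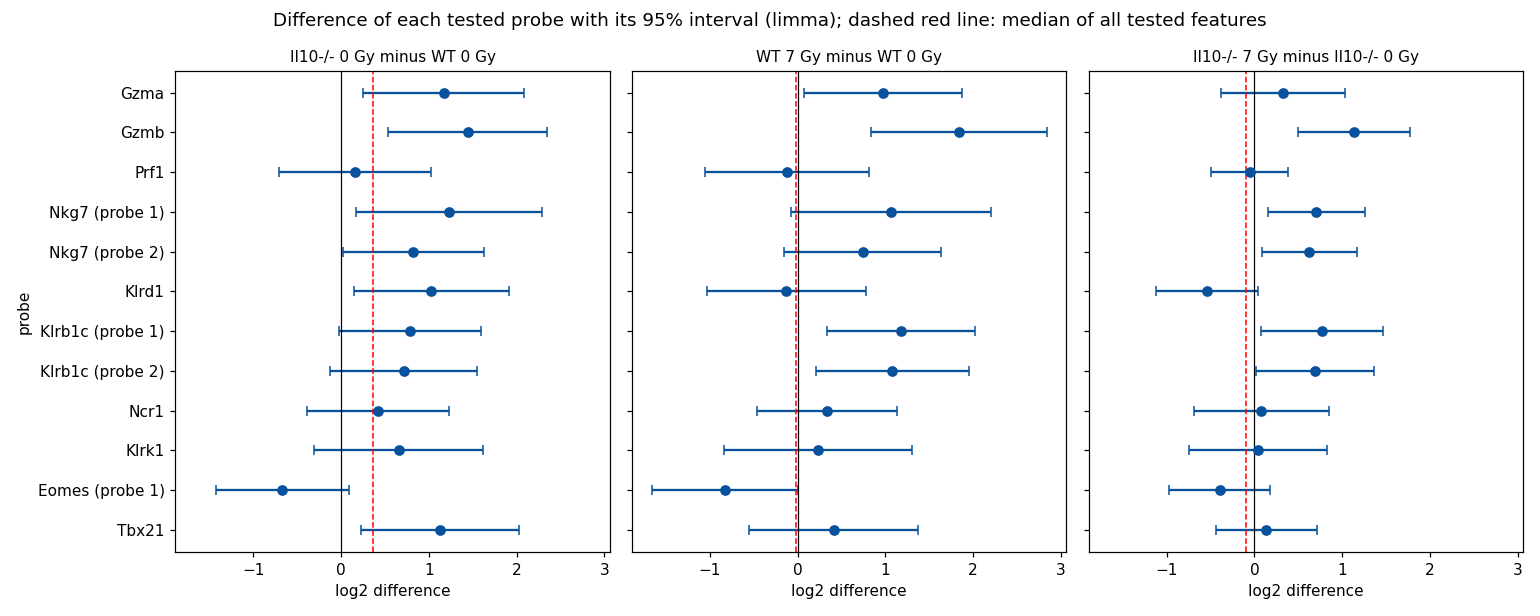
Log2 difference (horizontal axis) of each of the 12 tested probes (vertical axis) in the baseline comparison and both radiation responses, with the 95% interval of limma (n = 5 and 5 arrays). The solid line is 0 and the dashed red line the median of all 18587 features. Gzmb is the highest point in all 3 panels, at 1.44, 1.84 and 1.13, and Eomes is below 0 in all of them. With normexp background correction Eomes was above 0 in the first 2, but below the medians of all features there, 0.53 and 0.65.

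Whether the 2 responses differed was asked with the interaction term of a fit to all 20 arrays. It was called for 0 of the 10 genes and for 0% of all features. At an unadjusted p below 0.05, 0 of the 12 probes passed, against 7% of all features (1301), with 1.26% higher. For Gzmb the response was 0.70 smaller in Il10-/- mice, written as −0.70 (SE 0.56, 95% interval −1.87 to 0.46, adjusted p = 0.756 by limma). It was −0.40 without the weak array, −0.33 with quantile normalization, −0.45 with the 75th percentile subtracted, −0.47 with the reference-array scaling and −1.33 with normexp. The median of all features was −0.20 in the main fit, and 0.018, −0.10, 0.12, 0.084 and −1.01 in these settings, in the same order. The zero of the scale thus moved between the settings, most with normexp. The other probes ran from −0.64 for Gzma to 0.43 for Eomes. Without the weak array Gzma was at −0.32, and Klrd1 moved from −0.41 to −0.13. Other probes moved too, and the ranges of those that turned in sign are given in the last section. For Gzmb the order of the group means was WT 0 Gy at 3.48, Il10-/- 0 Gy at 4.92, WT 7 Gy at 5.31 and Il10-/- 7 Gy at 6.05. The first 2 neighbours did not overlap, the next 2 did, and so did the last 2.

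Differences between genes within an array do not change when a constant is subtracted from all log2 values of the array. For each pair of the 10 genes, the log2 signal of one gene minus that of the other (brightest probes) was compared between groups. Only its change between groups was read, since signals of different probes are not on a common scale. These pairs were looked at after the values were seen and are given as a description. Of 45 pairs, 8 did not overlap at baseline, 19 in the WT response and 13 in the Il10-/- response, which are 17.8%, 42.2% and 28.9%. Over all pairs of tested features, 5.21%, 19% and 17.8% did not overlap. With normexp background correction, 2 pairs did not overlap at baseline and 4 in the Il10-/- response. Without that correction, 11 of the 45 pairs separated in both responses, each in the same direction in both. These were 57.9% of those in WT and 84.6% of those in Il10-/- mice. The share of all pairs of features that separate in both responses was not computed, so the 11 have no reference. The pairs also share genes, and Gzmb was in 7 of the 19 and 5 of the 13.

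Gzmb against Klrd1 was 1 of the 11 pairs that separated in both responses. In WT mice Gzmb minus Klrd1 was 0.01, 0.16, 0.20, 0.01 and −0.04 at 0 Gy and 1.02, 2.12, 2.11, 2.13 and 2.78 at 7 Gy. In Il10-/- mice it was 0.69, 0.81, 0.10, 0.11 and 0.70 at 0 Gy and 2.02, 2.45, 1.92, 2.36 and 1.99 at 7 Gy. Every irradiated array lay above every unirradiated array of either genotype. The mean change was 1.97 in WT and 1.67 in Il10-/- mice. In WT mice at 0 Gy the 5 values lay within 0.25 of each other although Gzmb itself spanned 2.01 and Klrd1 1.76. Both genes were lowest on the weak array.

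Gzmb also moved up against Prf1, by 1.96 and 1.19, against Tbx21, by 1.43 and 1.00, against Eomes, by 2.66 and 1.53, and against Ncr1, by 1.5 and 1.05, in WT and Il10-/- mice respectively. Klrd1 moved down against Klrb1c, the other C-type lectin of the NK gene complex with a bright probe, by −1.21 and −1.23. In WT mice Klrd1 minus Klrb1c ran from −0.30 to 0.33 at 0 Gy and from −1.81 to −0.75 at 7 Gy, and in Il10-/- mice from 0.15 to 0.63 and from −1.19 to −0.40. Prf1 moved down against Nkg7 by −0.86 and −0.68. Nkg7 moved up against Klrd1 by 0.87 and 1.16. The remaining pairs that separated in both responses were Gzma, Nkg7 and Klrb1c against Eomes. At baseline 6 of the 8 pairs involved Eomes, which was highest on WT 0 Gy replicates 4 and 5.

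**Figure D3:**
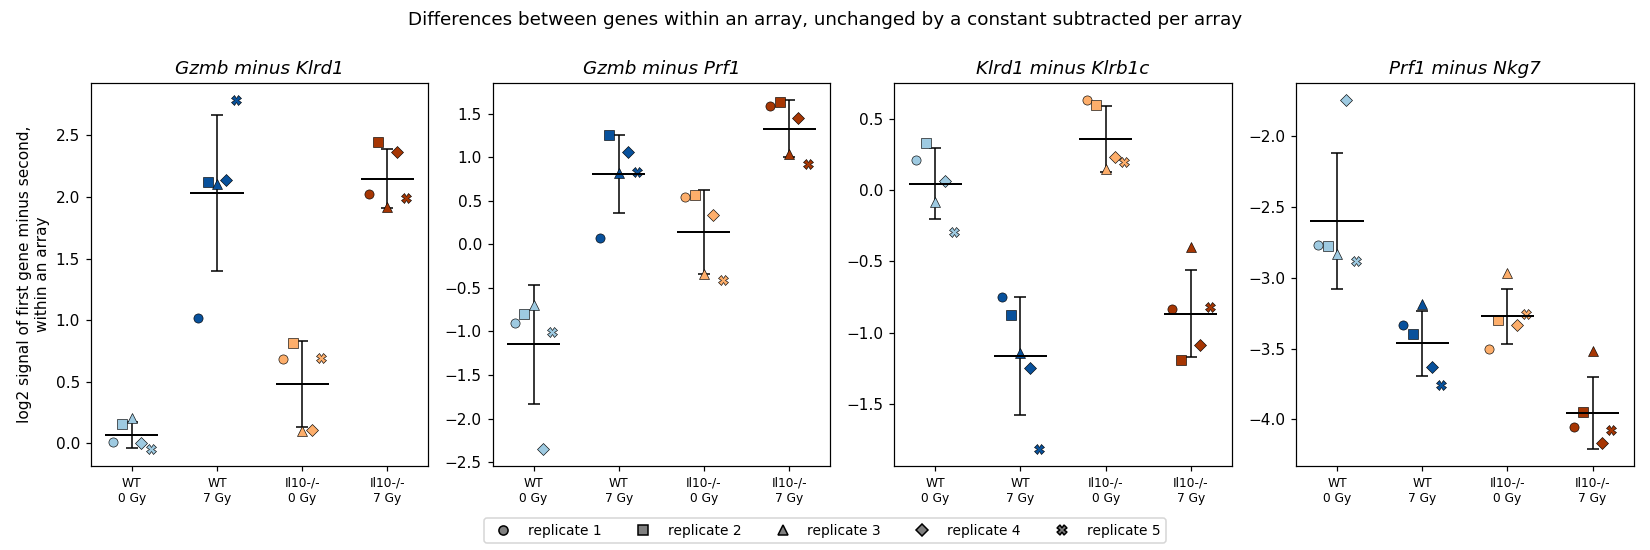
Within-array log2 difference between 2 genes (vertical axis) for 4 pairs, in the 4 groups, with points, bars and whiskers for arrays, means and 1 SD (n = 5). Gzmb minus Klrd1 was at most 0.81 on unirradiated arrays and at least 1.02 on irradiated arrays.

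Array by array, the deviations of the 10 genes from their group means were mostly positively correlated. Over the 45 pairs the correlation of these deviations on 20 arrays had a median of 0.58, from −0.25 to 0.95, and 0.67, from 0.04 to 0.92, without the weak array. The genes outside the list whose deviations were most like the mean of the 10, among 18775 genes, were Klrc1 (NKG2A, the inhibitory partner of Klrd1) with r = 0.95, Traf3ip3 with 0.94, Zcchc18 with 0.93, 9330175E14Rik with 0.92 and Sh2d1a (SAP, an adaptor of SLAM family receptors) with 0.92. Without the weak array their values were 0.95, 0.93, 0.92, 0.91 and 0.92. Correlations over all pairs of genes were not computed, and arrays differed in signal over background. The correlations therefore do not set the 10 genes apart from others.

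The rest of the NK and cytotoxic program was described with lists of named genes. A gene counts as called when 1 of its probes was, and the value given for a named gene is that of its called probe with the largest change. Of all features, 0.845% were called at baseline, 6.8% in the WT and 9.16% in the Il10-/- response. These shares are per probe, and a gene with several probes has more occasions to be called. List medians are taken over genes after averaging the tested probes of each gene, and where that average is smaller by over 0.2 it, or the value of the second probe, is given too. Of 10 tested genes for other granzymes, granule cargo and death ligands, 0 were called in any comparison, with median differences of 0.87 at baseline, 0.64 in the WT and 0.29 in the Il10-/- response. Gzmd, Gzmf, Gzmg and Gzmn were well above background on 0 of 20 arrays. Of 10 genes of granule transport and release, 2 rose in each response, where 4.48% (WT) and 3.29% (Il10-/-) of all features were called higher. In WT mice these were Lamp2, a lysosomal membrane protein, by 1.97 (SE 0.43, adjusted p = 0.00697 by limma) and Lamp1, by 1.72. In Il10-/- mice they were Stx11, a syntaxin needed for granule fusion, by 1.49 (SE 0.33, adjusted p = 0.00841) and Lamp2, by 1.24, with its second probe at 0.66 and not called. All these proteins are used well beyond lymphocytes. Lamp1 here, and Cd96, S1pr1, Themis and Hpx further on, were named after their values were seen.

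Of 26 tested other NK receptors, 0 were called in WT mice, and 1 rose and 2 fell in Il10-/- mice. In the Il10-/- response 3.29% of all features were called higher and 5.87% lower, so these counts do not set the receptors apart. Cd226 (DNAM-1), an activating receptor also present on platelets, rose by 1.67 (SE 0.26, adjusted p = 0.00126 by limma). Slamf6 fell by 1.45 (SE 0.25, adjusted p = 0.00254) and Cd96 by 1.22. The median over the 26 genes was 0.29 in WT and −0.09 in Il10-/- mice. At baseline Klra17, listed here with the other Klra genes, was the 1 called gene of the list. It was higher by 2.32 (SE 0.43, adjusted p = 0.0215 by limma) in Il10-/- mice. Which blood cells its signal came from was not tested, so it is not read as a change of NK cells. None of 16 adaptor and signaling genes was called in any comparison.

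Of 13 genes of cytokine receptors and their signaling, Il18r1, a receptor chain for interleukin 18, was higher in Il10-/- mice at baseline by 2.18 (SE 0.44, adjusted p = 0.0303 by limma) and fell after irradiation of these mice by 1.62 (SE 0.30, adjusted p = 0.00324). Its second probe was not called in either, and the averages of both were 1.75 and −1.21. The 2 comparisons share the unirradiated Il10-/- arrays. Il2rb, the chain that NK cells use for interleukin 15, rose in Il10-/- mice by 1.25 (SE 0.28, adjusted p = 0.00939), or 1.03 as the average of 2 probes. Of 11 other transcription factors, Ets1 fell in both responses, by 1.96 (SE 0.48) and 1.87 (SE 0.26) on 1 of its 2 probes, the averages of both being −1.76 and −1.48. Of 17 effector cytokines and homing receptors, Cx3cr1, a fractalkine receptor of patrolling monocytes and mature NK cells, fell by 2.79 (SE 0.54, adjusted p = 0.00357, average of 3 probes −2.48) in WT and by 3.55 (SE 0.37, adjusted p = 8.62e-05) in Il10-/- mice, and S1pr1 fell in Il10-/- mice by 1.66. Of 8 ligands of NKG2D on the array, 1 was tested and was not called.

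Markers of other lymphocytes are given beside these. Of all features, 2.32% were called lower in the WT and 5.87% in the Il10-/- response. Of 7 tested B cell markers, 6 fell in each response, with medians of −2.91 and −3.52, led by Fcrla at −3.71 (SE 0.45, adjusted p = 1.70e-04 by limma) and −4.41 (SE 0.35, adjusted p = 1.12e-05). Of 9 T cell markers, 1 fell in WT and 2 in Il10-/- mice, with medians of −0.53 and −0.88. Cd8a, the coreceptor of the T cells that share the granule genes, fell by 3.03 (SE 0.57) and 2.02 (SE 0.30) on 1 of its 2 probes, and the averages of both were −2.36 and −1.45. Neither Cd8a probe was well above background on more than 13 of the 20 arrays. Cd8b1 of the same list was well above background on all 20 and was not called in either response. Themis, a T cell signaling protein, was the other that fell in Il10-/- mice, by 1.19. With the probes of each gene averaged in the same way, the medians of the 10 NK and cytotoxic genes were 0.37 and 0.11. The log2 of the summed T cell marker signal ran from 8.22 to 9.86 in WT 0 Gy, 8.17 to 9.46 in WT 7 Gy, 9.48 to 9.70 in Il10-/- 0 Gy and 8.72 to 9.52 in Il10-/- 7 Gy mice, and that of the 10 genes from 7.56 to 9.25, 9.04 to 10.1, 9.13 to 9.85 and 9.27 to 10.5 in the same order. The T cell sum took 11 genes. Such sums add signals before the log2, so the brightest probes weigh most, those of Gzma and Nkg7 among the 10 genes. Markers of other blood cells also moved. All 7 platelet markers lay above 0 in both responses, with medians of 1.25 in WT and 1.14 in Il10-/- mice, larger than those of the 10 genes. None was called, and 4 had an adjusted p below 0.05 in WT mice and 0 in Il10-/- mice. At that limit 10.1% and 7.79% of all features were higher. Of 7 monocyte markers, 6 lay above 0 in the WT response, with a median of 1.45, and 5 in the Il10-/- response, with a median of 0.61. Cd14 rose in WT mice by 2.79, and Ccr2, against the median of its list, fell in Il10-/- mice by 1.39. None of 8 neutrophil markers was called in either response, with medians of −0.02 and −0.84, and 5 and 6 of 7 erythroid markers fell. At baseline all 8 neutrophil markers lay above 0, and 5 of them were called higher in Il10-/- mice, led by Lcn2 at 2.88. Of all features 0.845% were called higher there. Of the monocyte markers Cd14 was called higher at baseline, by 2.23, and all 7 lay above 0, as did all 7 platelet and 8 of 9 T cell markers. The baseline medians were 2.13 for neutrophil, 1.00 for platelet, 0.90 for monocyte, 0.57 for T cell and −0.24 for B cell markers, beside 0.89 for the 10 genes. The part of a change in cell makeup in the values of the 10 genes was not tested.

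**Figure D4:**
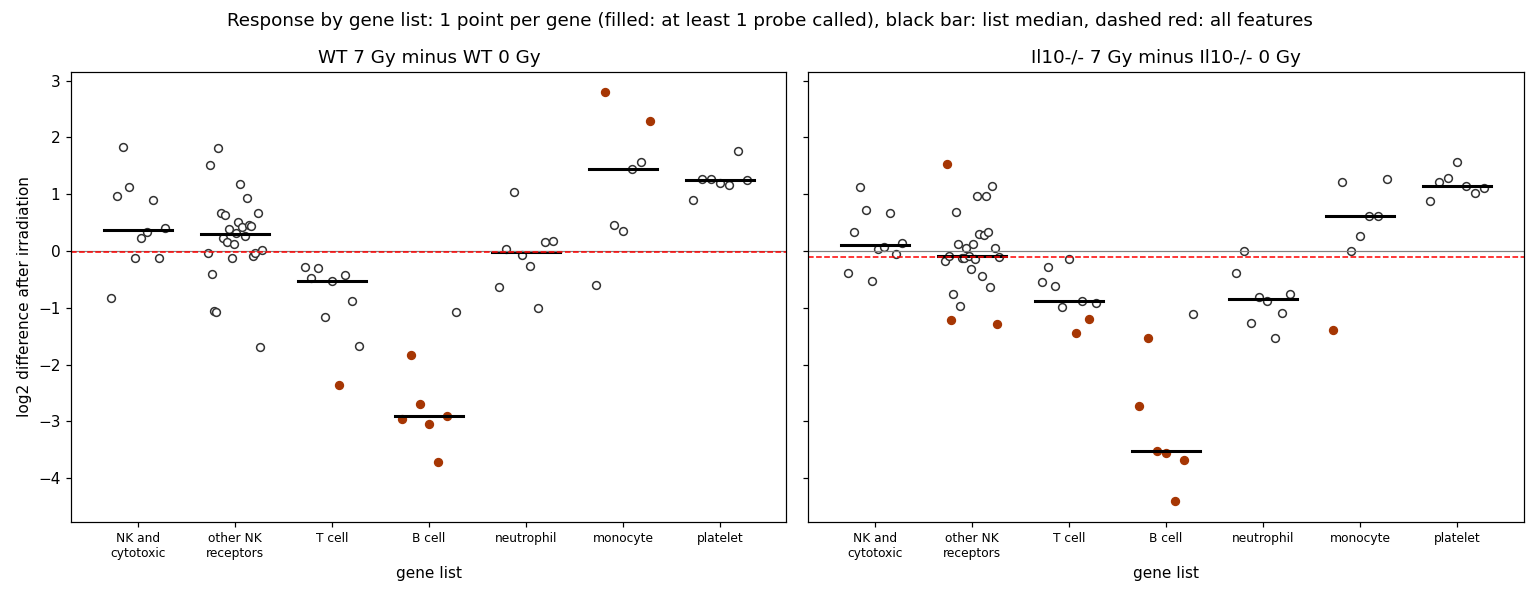
Log2 difference after 7 Gy (vertical axis) of the tested genes of 7 lists (horizontal axis), in WT mice on the left and Il10-/- mice on the right. Each point is 1 gene, filled when at least 1 of its probes was called, the bar is the list's median and the dashed red line the median of all features. The B cell medians are −2.91 and −3.52 and those of the NK and cytotoxic genes 0.37 and 0.11.

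RNA of other tissues also varied between arrays. Of 12 tested liver markers, 9 rose in WT mice, led by Serpina1a at 9.54 (average of 2 probes 8.29), and of 7 heart muscle markers 5 rose in Il10-/- mice, led by Myh6 at 7.08. At baseline 2 liver markers, Alb at 5.75 and Hpx at 5.70, were higher in Il10-/- mice, with a median over the 12 of 3.95. The log2 of the summed liver signal ran from 7.02 to 7.96 in WT 0 Gy, 8.97 to 16.1 in WT 7 Gy, 8.15 to 14.4 in Il10-/- 0 Gy and 8.74 to 14.4 in Il10-/- 7 Gy mice, and that of heart muscle from 1.88 to 5.69, 2.70 to 12.2, 2.15 to 7.02 and 4.87 to 11.9. Their part in the values of the 10 genes was not tested.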

How the data were processed

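Blood RNA of 20 mice was measured on Agilent one-colour arrays, 5 arrays for each of 4 groups taken from the sample labels. The authors deposited spot intensities for each array, from which Feature Extraction had removed background and spatial trend (version 10.7 per the submitters' processing notes, 12.0.2.2 in the file headers) without scaling arrays to one another. A deposited matrix of log2 values, which differ from these intensities by a constant for each array, served as an alternative. There were 0 columns of other samples. RNA had been extracted from PAXgene tubes.

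After log2 conversion, spots marked as non-uniform outliers were dropped, repeated spots were averaged to 1 value per probe, and every array was centred on the median of its 39429 non-control probes. Following the study's methods, probes marked or not above background on 25% or more of arrays, and probes with under 20% of arrays at least 1.5-fold from the median, were removed, leaving 18587. Each comparison of 2 groups was fitted in limma 3.58.1 (R 4.3.3, data.table package 1.17.8) to its 10 arrays, and the interaction to all 20. Figures were drawn in Python 3.11.15 with matplotlib 3.10.9, numpy 2.4.6 and pandas 2.3.3. For lists, the probes of a gene were averaged, and a gene was called when any probe was.

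The genes and gene lists were chosen with earlier results of these data known. Named are all 10 genes, Il10, the called gene with the largest rise and fall of each list in each comparison, and the 5 genes most like the mean of the 10. Replicate numbers mark slides, each with 1 array of every group and 1 scan. Deviations of same-numbered arrays correlated by −0.66 to 0.68, and no 2 groups had all 5 above 0.1, so the numbers were not taken as pairs. The mean correlation was still 0.41 between the irradiated groups and 0.22 between the WT groups. A fit with slide as a block was therefore run as an alternative.

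On simulated data of 18587 features, of 100 changed by 2 on the log2 scale 63, 64, 58 and 19 were called in the baseline, WT, Il10-/- and interaction comparisons, and of 100 changed by 1, between 1 and 5. Alternatives were other scalings, background correction, filters, fits and thresholds, and leaving out each array. The number of arrays and the signal over background limit the precision.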

Additional observations from a re-analysis of the deposited data

Results flagged for a closer look

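Within the groups of 5 arrays, 4 of 52 combinations of probe and group held an array far from the others by Dixon's ratio, which chance gives in about 1 in 20 groups. Klrd1 read 3.58 on Il10-/- 0 Gy replicate 5, and the next array read 4.54. On Il10-/- 7 Gy replicate 3, which had 34.6% of spots well above background, Klrk1 read −0.71 with the next array at 0.97, and Tbx21 read 4.62 with the next at 5.44. Eomes by probe 1 read 2.86 on Il10-/- 0 Gy replicate 3, and the next array read 2.48. Without Il10-/- 0 Gy replicate 5, the number of gene pairs that did not overlap at baseline was 16 in place of 8. The causes were not tested.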

How the results depend on the processing

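No member gene was called at baseline or in the interaction under any alternative run. In the WT response 1 gene, Gzmb, was called with reference-array scaling or the nearly identical authors' table. It was also called with all 20 arrays in 1 fit, or an adjusted p below 0.05 alone. Leaving out single arrays gave 0 to 1 called genes (1 without WT 0 Gy replicate 3 or WT 7 Gy replicate 1). In the Il10-/- response 1 gene, Gzmb, was called with reference-array scaling or the nearly identical authors' table. It was also called with quantile normalization, an adjusted p below 0.05 alone, or slide as a replicate block. Leaving out single arrays gave 0 to 1 called genes (1 without Il10-/- 7 Gy replicate 3). The replicate block changed no other call of the 10 genes. Gene pairs that did not overlap numbered 2 at baseline and 4 in the Il10-/- response with normexp, and 8 to 16, 19 to 22 and 13 to 17 (baseline, WT, Il10-/-) with single arrays left out. With normexp 11433 features remained, of which 261 were called in the WT response and 0 in the Il10-/- response.

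The values given next turned in sign, and none of them was called. With normexp, Eomes was 0.11 at baseline, Prf1 0.43, Klrd1 0.29 and Eomes 0.21 in the WT response, Tbx21 −0.19 in the Il10-/- response, and Prf1 −0.67 and Eomes −0.53 in the interaction. The median of all features with normexp was 0.53 at baseline, 0.65 in the WT response, −0.32 in the Il10-/- response and −1.01 in the interaction. Each of these normexp values lay on the same side of that median as in the main fit. With replicates 1 and 2 averaged, Prf1 was 0.020 and Klrd1 0.0027 in the WT response, Klrk1 −0.022 in the Il10-/- response and Prf1 −0.063 in the interaction. With quantile normalization, Klrk1 was −0.28 in the Il10-/- response, and Nkg7 (probes 1 and 2) 0.11 and 0.41 and Tbx21 0.12 in the interaction. In the interaction Nkg7 probe 2 was 0.14, 0.12 and 0.12 and Klrk1 0.065, 0.046 and 0.16 with the 75th percentile, reference-array scaling and the authors' table. With single arrays left out, Prf1 ran from −0.19 to 0.36 at baseline. In the WT response Prf1 ran from −0.46 to 0.085, Klrd1 from −0.41 to 0.030 and Klrk1 from −0.16 to 0.57. In the Il10-/- response Prf1 ran from −0.11 to 0.025, Ncr1 from −0.16 to 0.35 and Klrk1 from −0.084 to 0.40. In the interaction Prf1 ran from −0.14 to 0.41, Nkg7 from −0.60 to 0.17 and −0.25 to 0.16, Ncr1 from −0.50 to 0.0087, Klrk1 from −0.53 to 0.20 and Tbx21 from −0.45 to 0.072. The causes were not tested.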
